A study of Mus musculus with 38 samples.

Results

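Mmp7 and Mmp12, which encode matrix metalloproteinases, were followed through mouse liver in which bile duct epithelium and macrophages had been profiled separately. They are 2 of the 10547 genes of the expression table, and both had a value in all 38 tissue segments. The pair was chosen by measured values of these same segments: Mmp7 for its increase under the DDC diet in epithelial segments of WT mice, Mmp12 for its increase in macrophage segments of both genotypes, and both for the contrast between epithelium and macrophages. Their levels by segment class, location, diet and genotype are therefore given as a description with their spread. The fits over all genes covered them too, but no p-value is given for them.

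Matrix metalloproteinases are zinc-dependent endopeptidases that are made as inactive proenzymes and cut extracellular matrix and cell surface proteins. Matrilysin, the product of Mmp7, is a small secreted enzyme of epithelial cells that lacks the hemopexin domain of most of the family and is known for cutting E-cadherin, osteopontin and proteoglycans. In the liver it is known from injured bile ducts and is used as a serum marker of biliary atresia. Macrophage metalloelastase, the product of Mmp12, is made mainly by macrophages and is known for degrading elastin. Tissue inhibitors of metalloproteinases (Timp genes) block the active enzymes.

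Liver sections came from 4 groups of mice: WT and TrailΔmye mice, each fed a control diet (CON) or a diet with DDC, a porphyrinogenic chemical used as a model of cholestatic liver disease. TrailΔmye mice carry a floxed Tnfsf10 (Trail) gene that is deleted by Cre recombinase from the Lyz2 promoter, which is active in macrophages, neutrophils and other myeloid cells. All animals were C57BL/6, and all were fed over 21 days in rounds of 5 days of the diet separated by 3 days of chow, ending on day 22. Tnfsf10 itself was not analysed here, so the genotype labels were not checked by the deleted gene.

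Segments were cut out of regions of interest (ROIs) by GeoMx digital spatial profiling, in which ultraviolet light releases the barcodes of hybridized probes from 1 marked area at a time. PanCK+ segments, marked by epithelial keratins, and IBA1+ segments, marked by a macrophage protein, were taken from periportal ROIs, and IBA1+ segments alone from parenchymal ROIs. The 16 PanCK+ segments were 3 WT CON, 4 WT DDC, 4 TrailΔmye CON and 5 TrailΔmye DDC. The 15 periportal IBA1+ segments were 2, 4, 4 and 5 in the same order, and the 7 parenchymal IBA1+ segments were 1, 2, 2 and 2. The 2 segments of an ROI come from 1 piece of tissue, and the labels do not tie ROIs to mice, so ROIs of a group may share an animal. Every p-value over segments given below for other genes is therefore taken as too small to stand for animals.

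Total counts ran from 20319 to 836971 per segment, no value was below 1, and up to 70.3% of the genes of a segment were at exactly 1 count. Q3-normalized counts, the level used below, are the counts times 1 factor per segment, so that 1 count was worth between 0.131 and 5.25. A level resting on 1 count is called the count floor, and a fold against a group at the floor in every segment is given as a lower bound against 3 counts per segment, which covers counting error only. The negative probe, which matches no transcript, held between 1.00 and 6.08 counts in 36 segments, but 43.1 and 27.8 counts in the PanCK+ and the IBA1+ segment of ROI 35 of a DDC-fed TrailΔmye mouse. The labels were borne out by markers, called at an adjusted p under 0.05 by edgeR. Of 10 cholangiocyte genes 10 were higher, and of 10 macrophage genes 10 were lower, in PanCK+ than in periportal IBA1+ segments. The shares of all genes were 6.55% higher and 9.28% lower. Hepatocyte RNA was present in both kinds of segment, with summed Q3-normalized counts of 10 hepatocyte genes between 1017 and 8067 in PanCK+ segments and between 1211 and 14034 in periportal IBA1+ segments. In such segments fewer cells of a type and less RNA per cell cannot be told apart.

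Both genes lie in one cluster of 10 metalloproteinase genes on mouse chromosome 9 that spans 427.072 kb (GRCm38.p6, the build called mm10 in the submitters' processing notes). Mmp12 occupies chr9:7344397-7360461 and Mmp7 chr9:7692090-7699585, with their annotated starts 347.693 kb apart. Of the cluster, 4 genes were in the table: Mmp12, Mmp7, Mmp3 and Mmp1a. The 250 bases before an annotated start of each gene are shown because both hold TGANTCA (in capitals), the recognition sequence of AP-1, a stress- and cytokine-activated transcription factor for which metalloproteinase genes are known targets. Both stretches are given on the plus strand, 5′ to 3′, as RefSeq gives them for this build, at chr9:7691840-7692089 for Mmp7 and chr9:7347124-7347373 for Mmp12.
Mmp7: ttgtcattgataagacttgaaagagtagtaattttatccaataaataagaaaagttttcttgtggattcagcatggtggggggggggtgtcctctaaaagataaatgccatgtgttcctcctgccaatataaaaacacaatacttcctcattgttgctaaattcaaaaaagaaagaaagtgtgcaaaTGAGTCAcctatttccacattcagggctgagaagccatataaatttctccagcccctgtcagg
Mmp12: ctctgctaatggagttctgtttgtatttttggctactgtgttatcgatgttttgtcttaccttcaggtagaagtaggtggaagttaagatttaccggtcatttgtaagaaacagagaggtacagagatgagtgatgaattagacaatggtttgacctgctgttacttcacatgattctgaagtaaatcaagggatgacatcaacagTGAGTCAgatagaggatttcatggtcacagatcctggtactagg
Each gene has 2 annotated starts. The Mmp7 stretch precedes the start of the gene as given above, and the capitals stand 63 to 57 bases before it. The Mmp12 stretch precedes its other annotated start, at position 7347374 inside the gene, and the capitals stand 44 to 38 bases before that. The window of the remaining start of each gene held no TGANTCA. Over the cluster, 8 of 12 windows (of 10 genes) held TGANTCA, against 6.75% of 32851 mouse promoter windows of the same length (2217 windows; the motif reads the same on both strands). The Mmp7 window also held TATAAA at 123 to 118 and at 26 to 21 bases before the start, a match found in 12.4% of windows on either strand, and AGGAAG on the minus strand 108 to 103 bases before it, found in 29.5%. These are matches of letters, and binding was not measured.

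In PanCK+ segments Mmp7 was at the count floor in every WT CON segment and ranked between place 38 and place 267 of the 10547 genes in the DDC segments. The WT CON segments held 1 count each, which is worth 5.25 Q3-normalized counts in ROIs 3 and 5 and 3.50 in ROI 1. WT DDC segments held 98.9 (ROI 7), 130 (ROI 9), 116 (ROI 11) and 164 (ROI 13), from 40, 62, 44 and 78 counts. The lowest WT DDC segment was thus well above the highest control segment, and the WT DDC mean of 127 ± 27.6 (SD, n = 4) was at least 9.08-fold higher than the floor. The fitted log2 fold change was 4.77 (SE 0.68), which depends on how a count of 1 is treated.

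TrailΔmye CON segments were not all at the floor. They held 3.50 (ROI 26), 15.8 (ROI 27), 18.4 (ROI 28) and 14.7 (ROI 29), from 1, 6, 7 and 7 counts. TrailΔmye DDC segments held 169 (ROI 32), 155 (ROI 33), 51.6 (ROI 34), 60.01 (ROI 35) and 90.8 (ROI 36), from 418, 222, 113, 457 and 216 counts. Again no DDC segment overlapped the controls, with means of 105 ± 54.1 (SD, n = 5) and 13.1 ± 6.57 (SD, n = 4), and the fitted log2 fold change was 2.93 (SE 0.41). It was 3.07 (SE 0.36) without the PanCK+ segment of ROI 35. Every DDC segment stood above every control segment for 5.46% of all genes in WT and 5.72% in TrailΔmye PanCK+ segments, and since the genes were chosen on these values nothing is read from that. The genotypes overlapped under DDC, with the WT segments inside the range of the TrailΔmye segments and a log2 fold change of -0.27 (SE 0.30) for TrailΔmye over WT. Their PanCK+ totals differed, at 46675 to 61665 in WT DDC and 172180 to 836971 in TrailΔmye DDC segments.

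**Figure D1:**
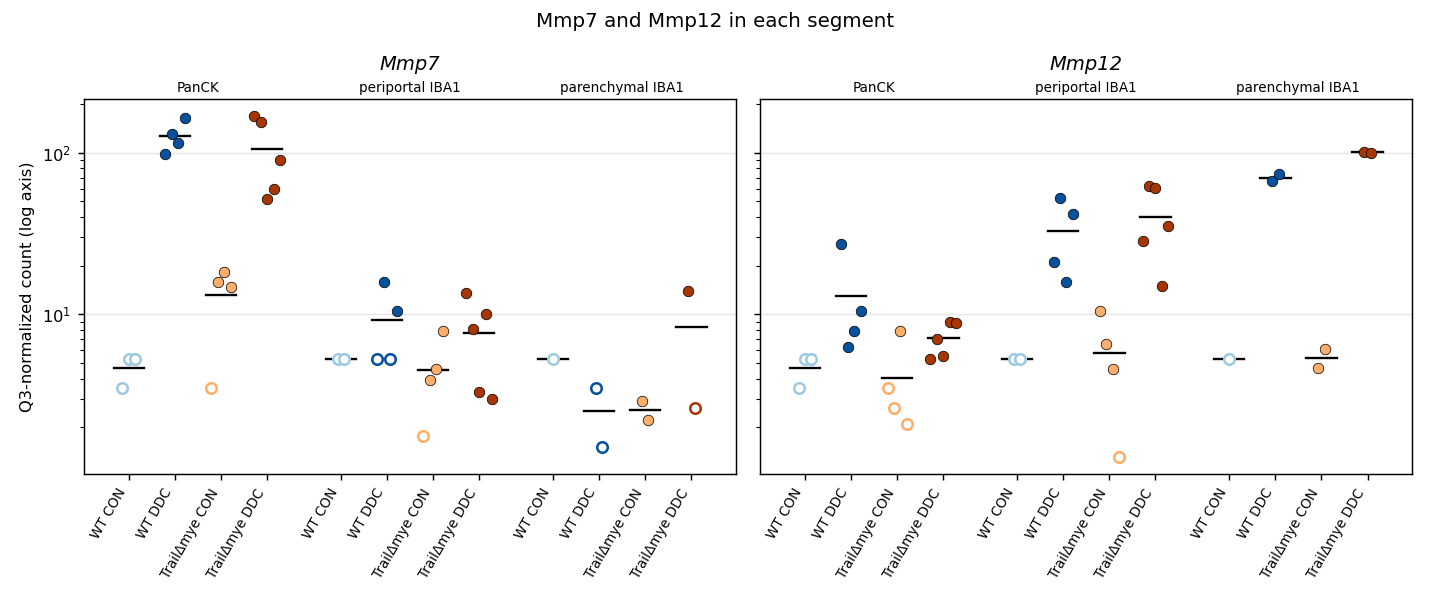
Q3-normalized counts (log axis) of Mmp7 and Mmp12 in each of 38 segments, by segment class and by genotype and diet; bars are group means and open circles are segments at 1 count. Mmp7 stands above 50 only in DDC PanCK+ segments, whereas Mmp12 is highest in the 4 parenchymal IBA1+ segments of DDC-fed mice (66.5 to 102).

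Outside the epithelium Mmp7 stayed low. In periportal IBA1+ segments of WT mice both controls were at 1 count (5.25 each), and the DDC segments held 5.25 (ROI 7), 15.8 (ROI 9), 5.25 (ROI 11) and 10.5 (ROI 13), from 1, 3, 1 and 3 counts. The TrailΔmye controls held 1.75, 3.94, 4.6 and 7.88 in ROIs 26 to 29. The TrailΔmye DDC segments held 13.6, 8.08, 3.28, 10.1 and 3.00 in ROIs 32 to 36. The diets overlapped in both genotypes, and the log2 fold changes were 0.81 (SE 1.03) in WT and 0.79 (SE 0.38) in TrailΔmye segments. In parenchymal IBA1+ segments Mmp7 was at 5.25 in the WT control, 3.50 and 1.5 in WT DDC, 2.92 and 2.21 in TrailΔmye CON and 14.0 and 2.63 in TrailΔmye DDC segments. All of the 7 rested on 5 counts or fewer, and the log2 fold change with diet of 1.15 (SE 0.64) turned to -0.53 without the segment of ROI 37.

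Mmp12 showed the other distribution, at its highest in IBA1+ segments of DDC-fed mice. In periportal IBA1+ segments the WT controls were at 1 count (5.25 each), and the WT DDC segments held 21.0 (ROI 7), 52.5 (ROI 9), 15.8 (ROI 11) and 42.0 (ROI 13), from 4, 10, 3 and 12 counts. The WT DDC mean of 32.8 ± 17.4 (SD, n = 4) was at least 2.08-fold above the floor, with no overlap between diets and a fitted log2 fold change of 2.65 (SE 1.00). The counts behind it are small, and the lowest DDC segment is itself at 3 counts.

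The TrailΔmye periportal IBA1+ segments had larger total counts (80722 to 568720, against 20319 to 35208 in WT). Their controls held 10.5 (ROI 26), 6.57 (ROI 27), 4.6 (ROI 28) and 1.31 (ROI 29), from 6, 5, 7 and 1 counts. The DDC segments held 28.4 (ROI 32), 62.2 (ROI 33), 60.4 (ROI 34), 15.1 (ROI 35) and 35.3 (ROI 36), from 46, 77, 92, 76 and 47 counts. ROI 35, with its high negative probe, was the lowest of the 5 and still above every control. The means were 40.3 ± 20.5 (SD, n = 5) and 5.74 ± 3.84 (SD, n = 4), and the log2 fold change was 2.84 (SE 0.42), or 3.09 (SE 0.36) without the IBA1+ segment of ROI 35. The share of all genes whose DDC segments stood above every control segment was 1.99% in WT and 4.04% in TrailΔmye periportal IBA1+ segments. Between the genotypes under DDC, the WT range lay inside 15.1 to 62.2, and the log2 fold change of TrailΔmye over WT was 0.21 (SE 0.40).

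Parenchymal IBA1+ segments, taken away from the portal tracts, held the highest Mmp12 levels of all on the Q3 scale. The WT control was at 5.25 (1 count) and the TrailΔmye controls at 4.67 and 6.08 (8 and 11 counts). WT DDC segments held 66.5 (ROI 10) and 73.5 (ROI 12), from 19 and 49 counts, and TrailΔmye DDC segments 102 (ROI 37) and 99.8 (ROI 38), from 29 and 38 counts. All of the 4 DDC segments stood far above the 3 controls, a pattern that 1.85% of all genes shared, with an additive log2 fold change of 4.14 (SE 0.39). The WT mean was at least 4.44-fold above the floor, and in TrailΔmye segments the ratio of the mean levels was 18.7. The TrailΔmye controls were only 1.46- and 1.81-fold above the negative probe. Their totals were 252265 and 265759, against 33832 and 48357 in the TrailΔmye DDC segments. Both TrailΔmye DDC segments exceeded both WT DDC segments, as did 12.1% of all genes with 2 segments against 2.

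Under DDC, all of the 4 parenchymal segments also exceeded all of the 9 periportal IBA1+ segments on the Q3 scale (66.5 or more against 62.2 or less), as did 1.16% of all genes. Over all 22 IBA1+ segments, diets and genotypes, the fitted log2 difference of periportal against parenchymal segments was -0.997 (SE 0.26) for Mmp12 and 0.78 (SE 0.38) for Mmp7. Set against the macrophage gene C1qa in the same segment, Mmp12 held 68.1 to 90.5 counts per 100 C1qa counts in parenchymal DDC segments and 18.1 to 90.9 in periportal DDC segments, so on this scale the locations overlapped. Control segments held 11.5 or fewer. The summed level of 10 macrophage markers was between 462 and 776 in parenchymal and between 352 and 882 in periportal DDC segments, while that of 10 fibroblast markers was between 151 and 266 in the parenchyma and between 696 and 1688 in periportal DDC segments. That of 10 hepatocyte markers was higher in the parenchyma, at 10823 to 14404 in WT and 4016 to 5935 in TrailΔmye DDC segments, against 1523 to 4979 and 1211 to 3694 in periportal DDC segments. The part of these lists in the difference was not tested.

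Mmp12 was low in PanCK+ segments. It was at 1 count in all of the 3 WT CON segments, and WT DDC segments held 27.2 (ROI 7), 6.30 (ROI 9), 7.88 (ROI 11) and 10.5 (ROI 13), from 11, 3, 3 and 5 counts. TrailΔmye CON segments held 3.50, 2.63, 7.88 and 2.10 in ROIs 26 to 29, with 3 of 4 at 1 count. TrailΔmye DDC segments held 5.25, 7.00, 5.48, 8.93 and 8.82 in ROIs 32 to 36. The WT DDC segments lay above their controls, but their mean of 13.0 was below the level of 3 counts in the controls (14.0), so no fold is given, and the TrailΔmye diets overlapped. The fitted log2 fold changes were 1.45 (SE 0.71) and 0.90 (SE 0.50), the latter 0.72 (SE 0.52) without ROI 35. Between the genotypes under DDC it was -0.74 (SE 0.34), with overlapping ranges. ROI 7, the highest WT segment, weighed on both: without it the value was -0.16 (SE 0.42) between genotypes and 0.86 with diet in WT.

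Ordered by mean level over the 12 groups, Mmp7 was highest in WT DDC PanCK+ and then TrailΔmye DDC PanCK+ segments, which overlapped. A gap without overlap followed, from 105 to 13.1 in TrailΔmye CON PanCK+ segments, and below it each group's range overlapped that of the next. For Mmp12 the first place was held by parenchymal TrailΔmye DDC segments (101 ± 1.24, SD, n = 2), then parenchymal WT DDC (70.0 ± 4.95, SD, n = 2) and periportal TrailΔmye DDC segments. These neighbours did not overlap on the Q3 scale. From periportal TrailΔmye DDC segments downwards, through WT DDC periportal IBA1+ and both DDC PanCK+ groups to the controls, each neighbour overlapped the next.

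The 2 segments of 1 periportal ROI allow the comparison of epithelium and macrophages in the same piece of tissue. In the 9 DDC ROIs with both segments, Mmp7 was higher in the PanCK+ segment of 9 ROIs, by 5.94- to 30.2-fold with a median of 15.7-fold. In 2 of these ROIs the IBA1+ segment was at 1 count, and its share was 3.31% to 16.8% of the PanCK+ level over the 9. Those values are of the size seen for the cholangiocyte keratin Krt19, whose IBA1+ level was 6.0% to 23.6% of the PanCK+ level, and Epcam, another cholangiocyte gene, with 2.45% to 22.0%. Whether the Mmp7 counts of IBA1+ segments came from neighbouring epithelium was not tested.

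Mmp12 ran the other way in 8 of the 9 DDC ROIs, where its PanCK+ level was 9.07% to 59.3% of the IBA1+ level. In ROI 7 it was higher in the PanCK+ segment, at 129% of the IBA1+ level, and there the values rested on 11 and 4 counts. Over the 9 ROIs the median was 25.0%, beside 23.6% for C1qa (13.7% to 50.0%) and 33.5% for Cd68 (14.9% to 83.3%), both macrophage genes. The summed level of the 10 macrophage markers was 116 to 160 in WT DDC and 111 to 165 in TrailΔmye DDC PanCK+ segments, against 57.8 to 84.0 and 52.5 to 99.8 in their controls, and no control PanCK+ segment of WT mice held more than 1 count of 5 of the 10. Their part in the Mmp12 counts of PanCK+ segments was not tested. Over 31 periportal segments the fitted log2 difference of PanCK+ against IBA1+ segments was 3.25 (SE 0.27) for Mmp7 and -2.01 (SE 0.23) for Mmp12.

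**Figure D2:**
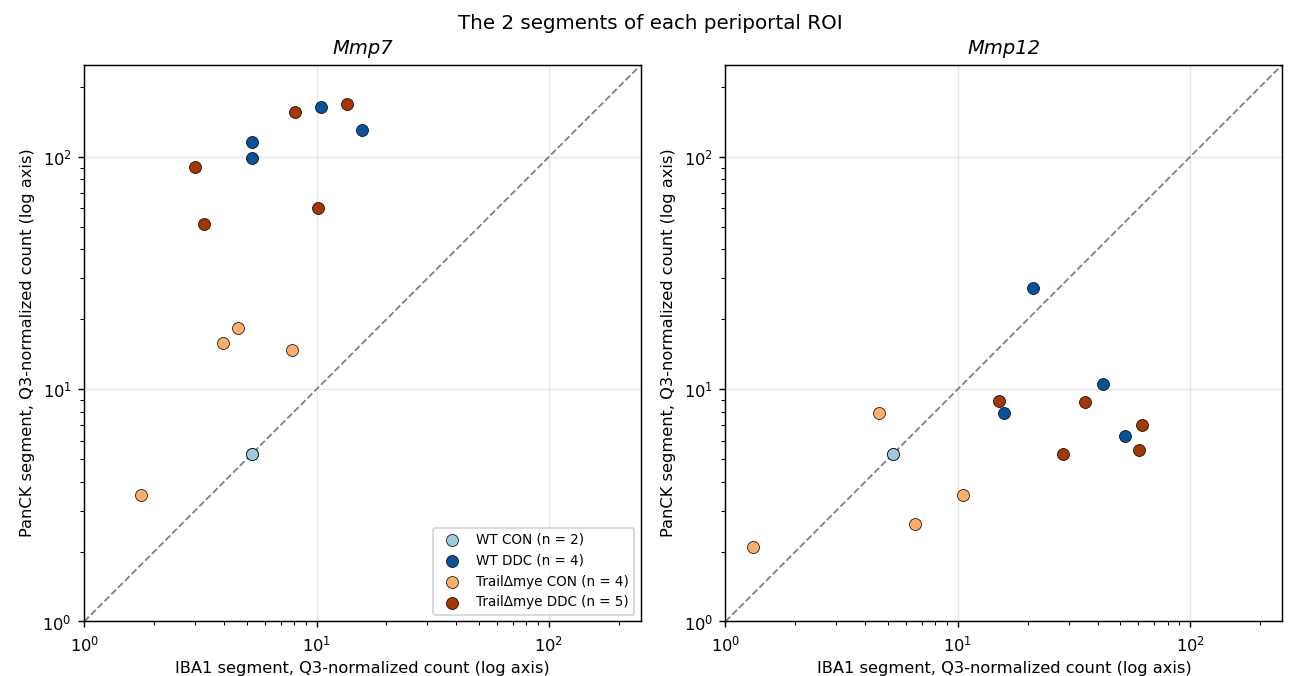
Level in the PanCK+ segment against that in the IBA1+ segment of each of 15 periportal ROIs, as Q3-normalized counts on log axes; the dashed line marks equal levels, and the 2 WT CON ROIs coincide at 5.25. Mmp7 lies above the line in all 9 DDC ROIs and Mmp12 below it in 8 of the 9.

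The Mmp7 level was also set against the epithelial keratin Krt19 of the same segment. Per 100 counts of Krt19, Mmp7 held 167 to 295 counts in WT DDC and 100 to 342 in TrailΔmye DDC segments, against 33.3 or fewer in WT CON segments, where Mmp7 was at the floor and Krt19 at 3 to 5 counts. TrailΔmye CON segments held 28.6 to 233, with the highest in ROI 28, where Krt19 was at 3 counts. Leaving that segment aside, no control reached the lowest DDC ratio. The summed level of the 10 cholangiocyte markers was higher under DDC in WT, at 1626 to 2198 in WT DDC against 644 to 1003 in WT CON. In TrailΔmye PanCK+ segments the sums overlapped, at 540 to 1622 under DDC against 571 to 790. A sum mostly follows its genes of high level, and fits gene by gene did not show this contrast. By edgeR 0 of the 10 were called in WT and 3, all higher, in TrailΔmye PanCK+ segments, beside 0.91% and 2.1% of all genes. The 0 of 10 in WT is close to that share. At an unadjusted p under 0.05 these were 5 and 9, beside 675 and 1188 of all 10547 genes. The median log2 fold changes were 0.90 and 0.93, beside -0.17 and 0.18 for all genes. Higher under DDC in both genotypes, WT given first, were the sums of 10 fibroblast markers (282 to 517 against 78.8 to 94.5, and 196 to 428 against 91.0 to 153) and of 6 measured neutrophil markers (195 to 311 against 36.8 to 49.0, and 126 to 330 against 34.1 to 55.1). Of the 6 neutrophil markers, Lcn2, which reactive cholangiocytes also express, was the 1 called higher in WT (log2 fold change 4.73, 241 ± 55.5 under DDC, SD, n = 4), and the median of the 6 was -0.60. In TrailΔmye PanCK+ segments Lcn2 (3.48) and S100a8 (1.96) were called, with a median of 0.84. The shares of all genes called are those given above. The part of these lists in the Mmp7 levels was not tested.

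Counts divided by the negative probe of the same segment gave a scale that does not use the Q3 factor. The probe was close to 1, the lowest value held, in WT PanCK+ (1.00 to 1.34) and WT periportal IBA1+ segments (1.03 to 1.15). There the ratio is nearly the count itself and follows the total of the segment. Folds of WT and TrailΔmye segments are therefore not on equal terms on this scale. Mmp7 was 36.2- to 62.7-fold above the negative probe in WT DDC PanCK+ segments and 10.6- to 87.5-fold in TrailΔmye DDC PanCK+ segments, where the lowest value was that of ROI 35. It was between 0.789- and 5.58-fold in control PanCK+ segments. In periportal IBA1+ segments it reached 6.03-fold at most. Mmp12 was 17.4- to 33.2-fold above the negative probe in parenchymal DDC segments, 2.86- to 10.4-fold in periportal WT DDC and 2.73- to 41.7-fold in periportal TrailΔmye DDC IBA1+ segments, and 3.25-fold or less in control IBA1+ segments. On this scale ROI 35, with 76 counts of Mmp12 in its IBA1+ and 68 in its PanCK+ segment, was at 2.73-fold and 1.58-fold, no higher than the highest TrailΔmye control of each class (3.25-fold and 2.39-fold).

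**Figure D3:**
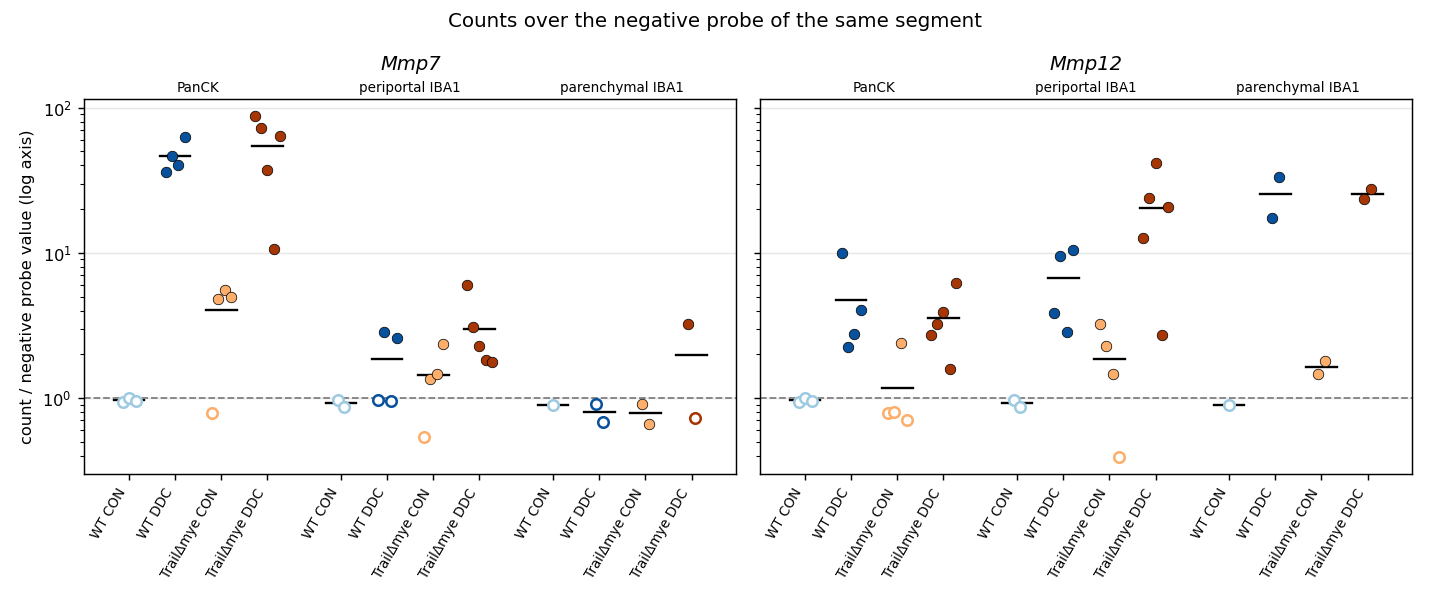
Counts of Mmp7 and Mmp12 divided by the negative probe value of the same segment (log axis); the dashed line marks a ratio of 1, bars are group means and open circles are segments at 1 count. DDC PanCK+ segments lie between 10.6 and 87.5 for Mmp7, and parenchymal DDC IBA1+ segments between 17.4 and 33.2 for Mmp12.

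The other measured metalloproteinases were set beside the pair, first with diet in PanCK+ segments. Of 21 further family members listed, 10 were in the table, and 0 of the 10 passed an adjusted p under 0.05 with diet in WT PanCK+ or in TrailΔmye PanCK+ segments by edgeR's quasi-likelihood test, with 1 each at an unadjusted p under 0.05. DESeq2 called 0 of 10 in both, and limma 1 (lower, WT) and 0. Of all genes, 0.91% were called in WT and 2.1% in TrailΔmye PanCK+ segments, so 0 of 10 is close to those shares. The median log2 fold change of the 10 was 0.12 in WT and 0.27 in TrailΔmye segments, beside -0.17 and 0.18 for all genes. Mmp3 and Mmp1a, the measured cluster neighbours of the pair, had mean counts of 6.84 and 4.84 over the 38 segments and were at 1 count in 10 and 17 of them.

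In periportal IBA1+ segments of TrailΔmye mice, 3 of the 10 were higher under DDC and none lower, against 4.2% of all genes higher and 5.18% lower. DESeq2 and limma called 2 of the 10, and 0 were called after thinning to the smallest total of the class. The 3 were Mmp2, a gelatinase of stromal cells (log2 fold change 2.32, SE 0.38, adjusted p = 9.57e-06 by edgeR), Mmp14, the membrane-bound activator of proMmp2 (1.67, SE 0.30, adjusted p = 5.37e-05), and Mmp23 (1.28, SE 0.36, adjusted p = 0.0124). Mmp2 held 28.1 ± 12.0 (SD, n = 5) under DDC and 6.02 ± 5.81 (SD, n = 4) in controls. The elastin gene Eln, whose product Mmp12 degrades, was higher there too (2.25, SE 0.32, adjusted p = 6.49e-07 by edgeR), at 46.1 ± 11.9 (SD, n = 5) against 9.19 ± 3.39 (SD, n = 4). Of 9 measured metalloproteinase substrate genes listed, Eln among them, 6 were called higher there and 0 lower. The summed level of 10 fibroblast markers was 696 to 1688 in these DDC segments and 87.5 to 260 in their controls, and its part in these increases was not tested. In WT periportal IBA1+ segments 0 of the 10 were called (1 at an unadjusted p under 0.05, 0 by DESeq2, 1 by limma) beside 1.19% of all genes, with log2 fold changes of 2.04 (SE 1.021) for Mmp2, 1.62 (SE 0.79) for Mmp14 and 0.82 (SE 0.98) for Mmp23. Eln had 2.20 (SE 0.77) in WT periportal IBA1+ segments and was not called (adjusted p = 0.272 by edgeR). Of the 9 substrate genes, 2 were called higher there and 0 lower. The difference between the genotypes in these changes with diet was not tested. In parenchymal segments 0 of 10 were called (1 unadjusted, 0 by DESeq2 and limma) beside 0.759%.

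Among the inhibitors, 3 of the 4 in the table were higher under DDC in TrailΔmye periportal IBA1+ segments, as were 4.2% of all genes. The log2 fold changes were 2.23 (SE 0.34, adjusted p = 1.87e-06 by edgeR) for Timp1, 1.16 for Timp2 and 1.62 for Timp3. DESeq2 called 3 of the 4, limma 2, and 1 was called after thinning. None of the 4 was called with diet in PanCK+ segments of either genotype or in parenchymal segments (edgeR, 1 in WT PanCK+ segments, 0 in TrailΔmye PanCK+ segments and 0 in parenchymal segments at an unadjusted p under 0.05, and 0 by DESeq2 and limma). Of all genes, edgeR called 0.91% in WT PanCK+, 2.1% in TrailΔmye PanCK+ and 0.759% in parenchymal segments, so 0 of 4 is close to those shares. In WT periportal IBA1+ segments 0 of the 4 were called by edgeR (1 unadjusted), beside 1.19% of all genes, and 1 by DESeq2 and by limma. The log2 fold changes there were 1.72 (SE 0.85), 1.27 (SE 0.77) and 2.02 (SE 0.60) for Timp1, Timp2 and Timp3. Timp1 held 13.2 ± 4.94 (SD, n = 4) in WT DDC PanCK+ segments, where Mmp7 was at 127, and was at 1 count in all of the 3 controls.

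Plasminogen and the proprotein activators can start the cascade that activates proenzymes. Of 8 in the table, 1 was called with diet in TrailΔmye PanCK+ and 1 in WT periportal IBA1+ segments, both lower. The shares of all genes called were 2.1% and 1.19%. In TrailΔmye periportal IBA1+ segments 2 of the 8 were lower, as were 5.18% of all genes. None was called in WT PanCK+ or parenchymal segments, beside 0.91% and 0.759% of all genes. Plg, the plasminogen gene of hepatocytes, was lower under DDC in TrailΔmye PanCK+ segments (log2 fold change -1.01, SE 0.30, adjusted p = 0.0495 by edgeR), WT periportal IBA1+ segments (-1.92) and TrailΔmye periportal IBA1+ segments (-2.03), where the hepatocyte protease Hpn was lower as well (-1.21). The 10 hepatocyte markers together moved the same way in periportal IBA1+ segments, from 8529 to 12453 in WT CON to 1523 to 4979 in WT DDC, and from 10154 to 14034 in TrailΔmye CON to 1211 to 3694 in TrailΔmye DDC segments. Of the 22 proteases, activators and inhibitors together, 6 were called higher and 2 lower with diet in TrailΔmye periportal IBA1+ segments (4.2% and 5.18% of all genes), 1 each in WT periportal IBA1+ and TrailΔmye PanCK+ segments (1.19% and 2.1% of all genes) and 0 in WT PanCK+ segments (3 unadjusted, 0 by DESeq2, 1 by limma) and in parenchymal segments (2 unadjusted, 0 by DESeq2 and limma).

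**Figure D4:**
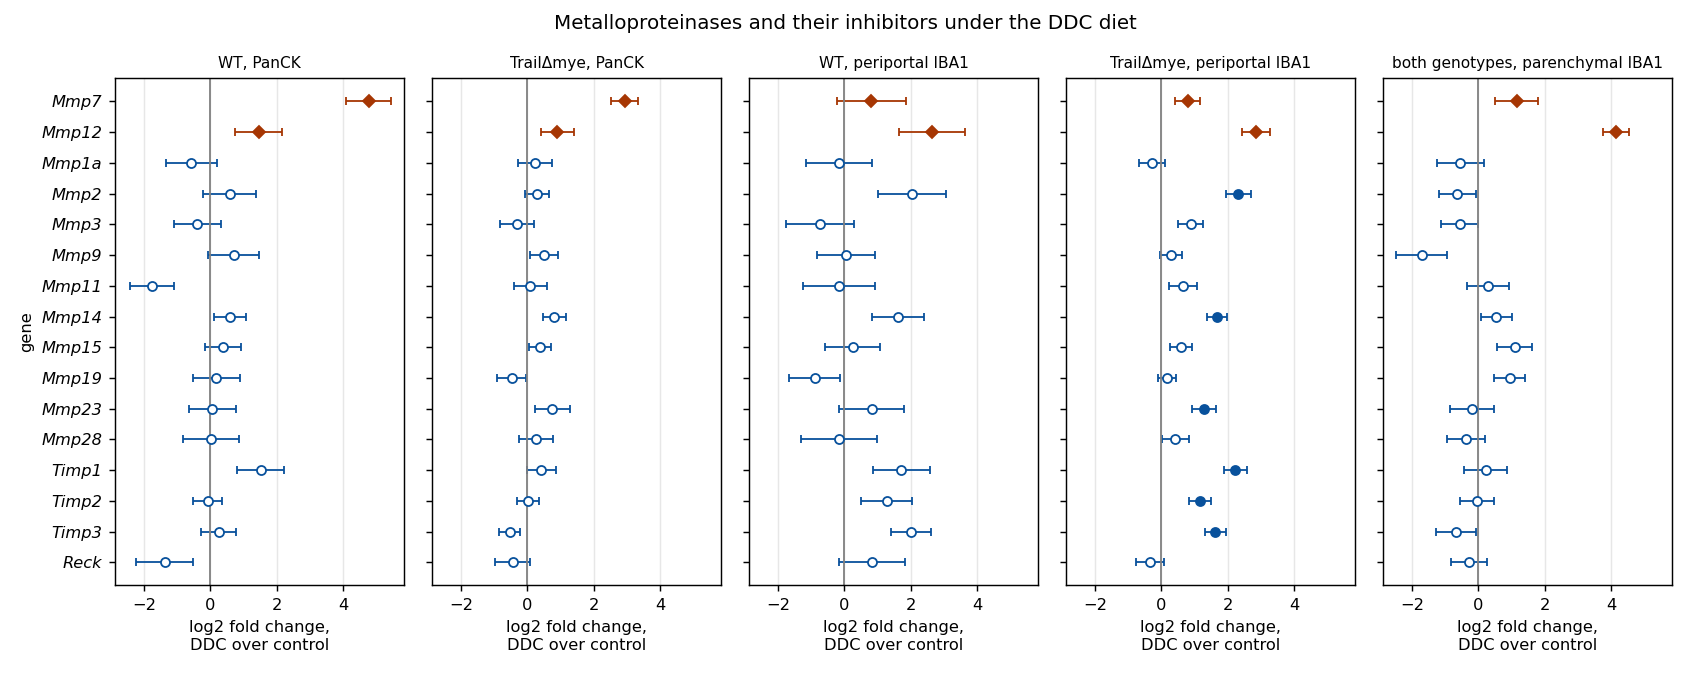
Fitted log2 fold changes of DDC over control, with standard errors, for Mmp7 and Mmp12 (diamonds, no p-value given) and for 10 other metalloproteinases and 4 inhibitors (circles, filled where the adjusted p was under 0.05), in 5 comparisons of diet. Filled circles appear only in TrailΔmye periportal IBA1+ segments, for Mmp2, Mmp14, Mmp23, Timp1, Timp2 and Timp3.

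By segment class, Mmp15, a membrane-type enzyme, was the 1 of the 10 called higher in PanCK+ than in periportal IBA1+ segments (log2 fold change 1.43, SE 0.18, adjusted p = 3.94e-10 by edgeR), and Mmp2 (-1.26), Mmp19 (-0.75) and Mmp23 (-0.65) were lower. The background was 6.55% of genes higher and 9.28% lower. St14, the epithelial protease matriptase, was higher in PanCK+ segments (2.16, SE 0.19), and Timp1 (-0.76) and Timp3 (-0.71) were lower. Cdh1, which encodes the Mmp7 substrate E-cadherin, was higher (2.69, SE 0.20). Of the 9 measured metalloproteinase substrate genes listed, Cdh1 among them, 2 were called higher and 4 lower, with a median log2 fold change of -0.48. By location, Mmp2 (1.31), Timp2 (2.05) and Timp3 (1.498) were higher in periportal than in parenchymal IBA1+ segments and Plg (-0.85) was lower, where 0.882% of all genes were higher and 1.35% lower. Between the genotypes under DDC, 0 of the 22 were called in PanCK+ segments (1 at an unadjusted p under 0.05, 0 by DESeq2 and limma) beside 0.152% of all genes, and 0 of 22 in periportal IBA1+ segments (1 unadjusted, 0 by DESeq2 and limma) beside 0.019%.

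The genes whose levels were most like those of the pair over the 38 segments were taken by Pearson's correlation of log2(Q3-normalized count + 1) among 10472 genes above 1 count in at least 19 segments. For Mmp7 they were Plscr1 (r = 0.91), Tspan8 (0.88), Slco3a1 (0.86), Cd24a (0.86) and Muc1 (0.84), of which Cd24a and Muc1 encode surface glycoproteins of epithelia and Plscr1 an interferon-inducible phospholipid scramblase. Plscr1 held 42.4 ± 15.5 (SD, n = 4) in WT DDC, 41.2 ± 9.63 (SD, n = 5) in TrailΔmye DDC, 8.17 ± 4.04 (SD, n = 3) in WT CON and 10.1 ± 5.03 (SD, n = 4) in TrailΔmye CON PanCK+ segments. By Spearman's rank correlation Slco3a1 and Plscr1 came first and second of all.

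For Mmp12 they were Lgals3 (r = 0.81), Trem2 (0.80), Ctsd (0.78), Clec7a (0.77) and Gstm3 (0.77). Lgals3, Trem2 and Clec7a encode galectin-3, a lipid-sensing receptor and a beta-glucan receptor of macrophages, Ctsd a lysosomal protease, and Gstm3 a glutathione transferase. Gstm3 dropped to place 116 (r = 0.62) when the 31 periportal segments alone were used, where Lgals3 (0.82) and Trem2 (0.83) took places 3 and 2, Ctsd (0.77) place 15 and Clec7a (0.76) place 19. Mmp7 and Mmp12 themselves did not follow each other (r = -0.17, Spearman's rho = -0.07, 38 segments). The points share ROIs, depth and perhaps animals, and differences between classes and diets are part of each correlation, which describes likeness only.

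**Figure D5:**
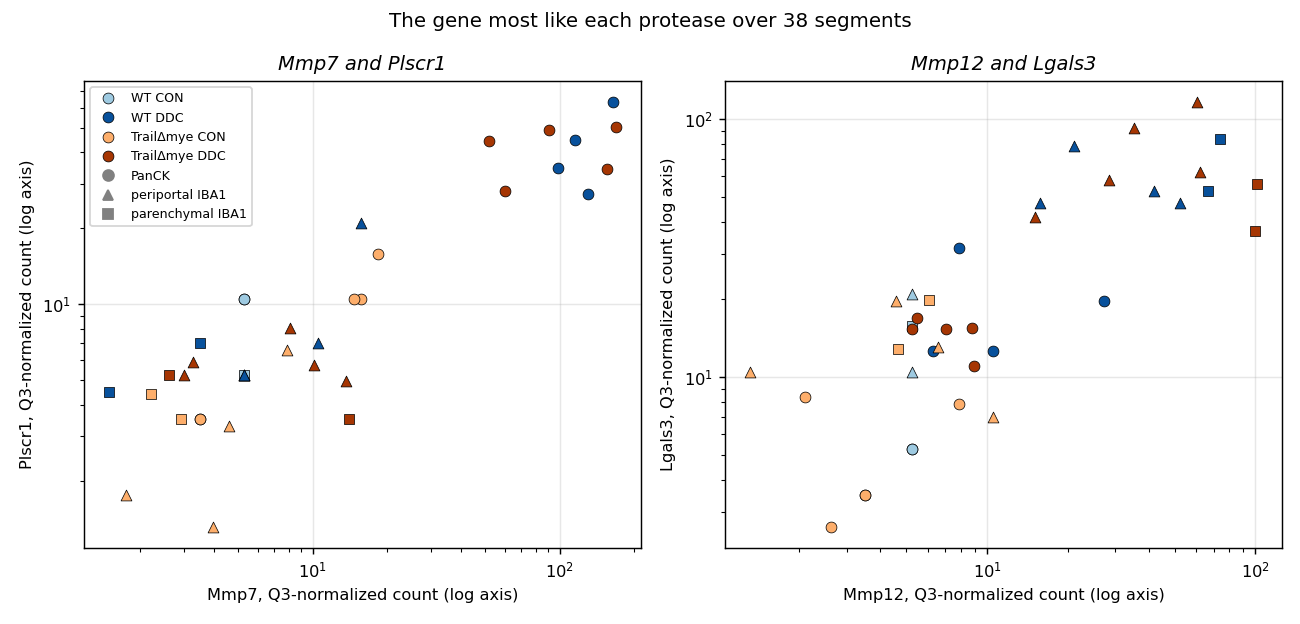
Q3-normalized counts (log axes) of Mmp7 against Plscr1 and of Mmp12 against Lgals3 in 38 segments, coloured by genotype and diet, with circles for PanCK+, triangles for periportal IBA1+ and squares for parenchymal IBA1+ segments. DDC PanCK+ segments lie at the upper right for Mmp7 (r = 0.91), and DDC IBA1+ segments at the upper right for Mmp12 (r = 0.81).

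Trem2 and Lgals3 belong to a list of 9 measured genes of recruited, lipid-associated macrophages, drawn up with earlier results of these data known, of which 7 were higher under DDC in TrailΔmye periportal IBA1+, 5 in parenchymal and 1 in WT periportal IBA1+ segments by edgeR, where 4.2%, 0.759% and 1.19% of all genes were called (the first counting genes higher only). By limma (pseudocount 1) these were 7, 1 and 6, and after thinning 5, 1 and 0. The median log2 fold change of the 9 was 1.70, 1.60 and 1.83, so the counts do not show a difference between the genotypes, which was not tested. Trem2 rose by 3.34 on the log2 scale (SE 0.37, adjusted p = 1.62e-09 by edgeR) in TrailΔmye periportal IBA1+ segments and by 2.44 (SE 0.48, adjusted p = 0.00783) in parenchymal segments, where Mmp12 had 2.84 and 4.14. Under DDC the Trem2 level of TrailΔmye mice was 40.8 ± 12.5 (SD, n = 5) in periportal and 32.4 ± 8.67 (SD, n = 2) in parenchymal IBA1+ segments, with overlapping ranges, whereas the Mmp12 ranges did not overlap and the parenchymal one was higher. Beside Mmp7, 9 measured genes of reactive cholangiocytes had 3 members higher under DDC in WT and 4 in TrailΔmye PanCK+ segments, Cd24a among both, where 0.91% and 2.1% of all genes were called. By class, 9 of 9 were higher in PanCK+ than in periportal IBA1+ segments, as were 6.55% of all genes.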

How the data were processed

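Liver sections were profiled by the authors with the GeoMx mouse Whole Transcriptome Atlas, amplified by 18 cycles of PCR and sequenced, and targets were filtered by the limit of quantification. The expected counts are the authors' deposited values per gene and segment, and the signal values are the deposited Q3-normalized counts, which were checked to be the counts times 1 factor per segment. The submitters' processing notes name mm10 and bcl2fastq. The aligner was not given in the sources used here. Why no count is below 1 is not stated. Counts were rounded (those of 3 genes were not whole). Under R 4.3.3, edgeR 4.0.16 fitted them (quasi-likelihood test, upper-quartile factors at the 75th percentile, no filter, Benjamini-Hochberg adjustment over all 10547 genes, threshold 0.05, two-sided), with 1 coefficient per group in PanCK+ and in periportal IBA1+ segments, genotype plus diet in parenchymal segments, and group plus class or location across them. The SE is the log2 fold change over the square root of F. Fits were tested on simulated data.

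Alternatives were TMM factors, DESeq2 1.42.0, limma 3.58.1 on log2(Q3-normalized count + 1) or + 0.5, filterByExpr, counts of 1 set to 0, thinning to the smallest total of a class, all segments in one fit, the ROI as a replicate block and each segment left out. Division by the negative probe was added after seeing the data. The labels give both segments of an ROI 1 number, so they share a piece of tissue. Their deviations from the group means correlated between -0.016 and 0.528 over 15 ROIs (median 0.032, over 0.1 in 5). The 2 genes and the gene lists were chosen with earlier results of these data known. The genes named were drawn from the pair, list members called in a comparison (at most 5 per list and comparison, by size of change), all metalloproteinases and inhibitors measured, the cell type markers, the cluster genes and the 5 genes most correlated with each of the pair. Not every such gene is named, and a further list of cathepsins and serine elastases is not described. Promoter windows were read from RefSeq sequences of GRCm38.p6. Plots were drawn with matplotlib 3.10.9.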

Additional observations from a re-analysis of the deposited data

How the results depend on the processing

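In 443 of 461 recomputed fold changes, over 18 pairs of gene and comparison, the value moved by less than the residual SD of the levels. A further 15 moved by 1 SD or more, and 3 changed sign by 1 SD or more. The 461 include the fits with 1 segment left out, which share most of their data with the main fit. Mmp7 was at 1 count in 13 and Mmp12 in 10 of the 38 segments, where a lower level could not be measured. With counts of 1 set to 0, the log2 fold change with diet was 10.30 for Mmp7 and 6.98 for Mmp12 in WT PanCK+, 1.85 for Mmp12 in TrailΔmye PanCK+, and 5.88 and 8.13 in WT periportal IBA1+ segments. Thinned to the smallest total of the class, Mmp12 turned to -0.39 with diet in TrailΔmye PanCK+ segments and was -1.98 between genotypes in DDC PanCK+ segments. For Mmp12 in parenchymal segments it was 3.93 thinned, 4.43 by DESeq2, and 3.80 and 3.92 by limma with a pseudocount of 1 and 0.5. Without parenchymal ROI 37, Mmp7 turned to -0.53 there (range over segments left out -0.53 to 1.91). Over the negative probe, Mmp7 had 5.56 and 3.77 with diet in WT and TrailΔmye PanCK+ segments, Mmp12 had 1.66 in TrailΔmye PanCK+ segments, -0.98 for PanCK+ against IBA1+ segments and 1.37 between genotypes in DDC periportal IBA1+ segments, where Mmp7 turned to 0.73. The causes were not tested. With the ROI as a replicate block, PanCK+ against IBA1+ segments gave 3.28 for Mmp7, -1.89 for Mmp12 and 9 called proteases, and no call on direction changed.

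Of the 22 proteases, activators and inhibitors, the number called with diet in WT PanCK+ segments was 1 by limma (pseudocount 1) and with filterByExpr, and 0 to 1 with a segment left out. In TrailΔmye PanCK+ segments it was 0 by limma with either pseudocount, thinned or in one fit of all segments, and 0 to 1 with a segment left out, since the adjusted p of Plg lay close to the threshold. In WT periportal IBA1+ segments it was 0 with TMM factors, 2 by DESeq2, by limma (pseudocount 0.5) and with filterByExpr, 3 by limma (pseudocount 1), and 0 to 1 with a segment left out (0 without control ROI 5 or DDC ROI 11). In TrailΔmye periportal IBA1+ segments it was 5 by limma with either pseudocount and 2 thinned, and in parenchymal segments 1 with filterByExpr. For PanCK+ against IBA1+ segments it was 5 by limma (pseudocount 0.5), 4 with filterByExpr and 2 thinned, and by location 2 to 4 with a segment left out (2 without parenchymal DDC ROI 12, 37 or 38).

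Calls over all genes ran from 73 to 331 across the alternatives with diet in WT PanCK+ segments (96 in the main analysis), from 80 to 283 in TrailΔmye PanCK+ segments (221), from 75 to 434 in WT and from 187 to 1172 in TrailΔmye periportal IBA1+ segments (125 and 989), from 45 to 187 in parenchymal segments (80), and from 1 to 97 and 1 to 24 between genotypes in DDC PanCK+ and periportal IBA1+ segments (16 and 2). They ran from 460 to 1881 by class (1670) and from 122 to 320 by location (235). With 1 segment left out they ran from 58 to 147 and from 114 to 402 in WT and TrailΔmye PanCK+ segments, from 30 to 159 in WT periportal IBA1+ segments, from 36 to 99 in parenchymal segments, from 1 to 58 and from 1 to 2 between genotypes, and from 114 to 286 by location. Under TMM factors the all-gene median of the change with diet went from -0.17 to 0.02 (log2) in WT PanCK+ and from 0.18 to -0.06 in TrailΔmye PanCK+ segments.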
